A study of Homo sapiens with 23 samples.

Results

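The 10 transcription factors of the Müllerian lineage, PAX8, PAX2, WT1, SOX17, EMX2, LHX1, MECOM, ESR1, PGR and POU3F3, were examined in parental and prexasertib-resistant ovarian cancer cell lines. They were chosen by name, with the changes in the resistant lines already known (LHX1 lower in all 4 lines, EMX2 and POU3F3 moved most in Kuramochi), and were found in the table by NCBI Gene ID. Of the 10 genes, 9 were among the 21658 genes with a value. PGR, the progesterone receptor, had no row and is not analysed here. Gene expression was measured by RNA-seq in 23 libraries from 4 established human lines, Kuramochi, OVSAHO, EFO-21 and OV-90. Each was read as the parental line and as a resistant line (-R). The resistant lines were derived by long culture in rising concentrations of prexasertib, an inhibitor of the checkpoint kinase CHK1. Each of the 8 groups had 3 libraries except parental OV-90, which had 2. Whether a resistant line was a clone or a pool is not stated in the sources used here, so each line pair stands for 1 derivation.

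The Müllerian ducts of the embryo form the fallopian tubes, the uterus and the upper vagina, and most high-grade serous ovarian carcinomas resemble tubal epithelium. The duct is laid down by cells that express PAX2, PAX8, LHX1 and EMX2, and several of these factors stay on in the adult tubal epithelium. In pathology PAX8 and WT1 are stained to recognise a serous carcinoma of this origin, while ESR1 and PGR carry the response to sex hormones. The values below are log2 expression values as deposited, so a difference of 1 is 2-fold. The 10th percentile of a library lay between 1.70 and 1.87. A gene is called at the bottom where every library of the group is at or below it, and a difference that starts or ends there, for any gene below, gives the distance to the low end of the scale and not a measured fold. Each value is relative to the other genes of its library, and in bulk RNA fewer cells expressing a gene and less of its RNA per cell cannot be told apart.

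Promoter sequences from RefSeq (GRCh38.p14, from 250 bases before to 50 bases after a listed start) were matched by symbol for 8 of the 10 genes, with 21 windows in all. The windows of EMX2 and POU3F3 are shown because these genes had the largest differences, in opposite directions, and that of PAX8 because it is the defining marker of the lineage. Sequences run 5′ to 3′ on the gene's strand, and capitals mark CG dinucleotides, the sites at which human DNA is methylated.
EMX2, chr10:117542496-117542795, plus strand: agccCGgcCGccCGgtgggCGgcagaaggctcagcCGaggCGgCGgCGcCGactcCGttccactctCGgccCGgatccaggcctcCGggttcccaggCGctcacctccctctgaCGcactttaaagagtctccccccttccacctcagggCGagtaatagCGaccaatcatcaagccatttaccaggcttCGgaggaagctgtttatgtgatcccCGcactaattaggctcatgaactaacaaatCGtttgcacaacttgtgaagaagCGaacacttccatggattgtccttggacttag
POU3F3, chr2:104853865-104854164, plus strand: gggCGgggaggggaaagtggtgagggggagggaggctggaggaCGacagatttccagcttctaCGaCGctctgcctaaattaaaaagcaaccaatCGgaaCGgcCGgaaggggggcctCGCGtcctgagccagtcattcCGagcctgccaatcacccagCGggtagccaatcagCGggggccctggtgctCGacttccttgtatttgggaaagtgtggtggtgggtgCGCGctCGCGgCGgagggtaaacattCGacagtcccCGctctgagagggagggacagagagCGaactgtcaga
PAX8, chr2:113278872-113279171, minus strand: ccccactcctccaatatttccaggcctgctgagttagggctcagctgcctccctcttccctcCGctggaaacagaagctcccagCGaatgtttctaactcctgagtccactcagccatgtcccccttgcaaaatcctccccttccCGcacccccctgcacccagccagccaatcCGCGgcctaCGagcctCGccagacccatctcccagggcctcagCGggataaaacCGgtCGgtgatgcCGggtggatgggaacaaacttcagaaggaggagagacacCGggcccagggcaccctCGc
The EMX2 and POU3F3 windows each held 21 CG dinucleotides and the PAX8 window 13, beside a median of 14 over 35116 windows of the table. A CCAAT box (CCAAT on either strand) was present in all 3, as it was in 34.6% of all windows. The half-site AGGTCA of nuclear receptors, on either strand, was in 2 of the 21 windows of these genes, at starts of MECOM and WT1 (13.8% of all windows), and the sequence GCGGGGGCG, bound by WT1 and EGR proteins, was in 1 of them, at a start of ESR1 (5.07% of all windows). These are matches of letters only, and methylation was not measured.

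**Figure D1:**
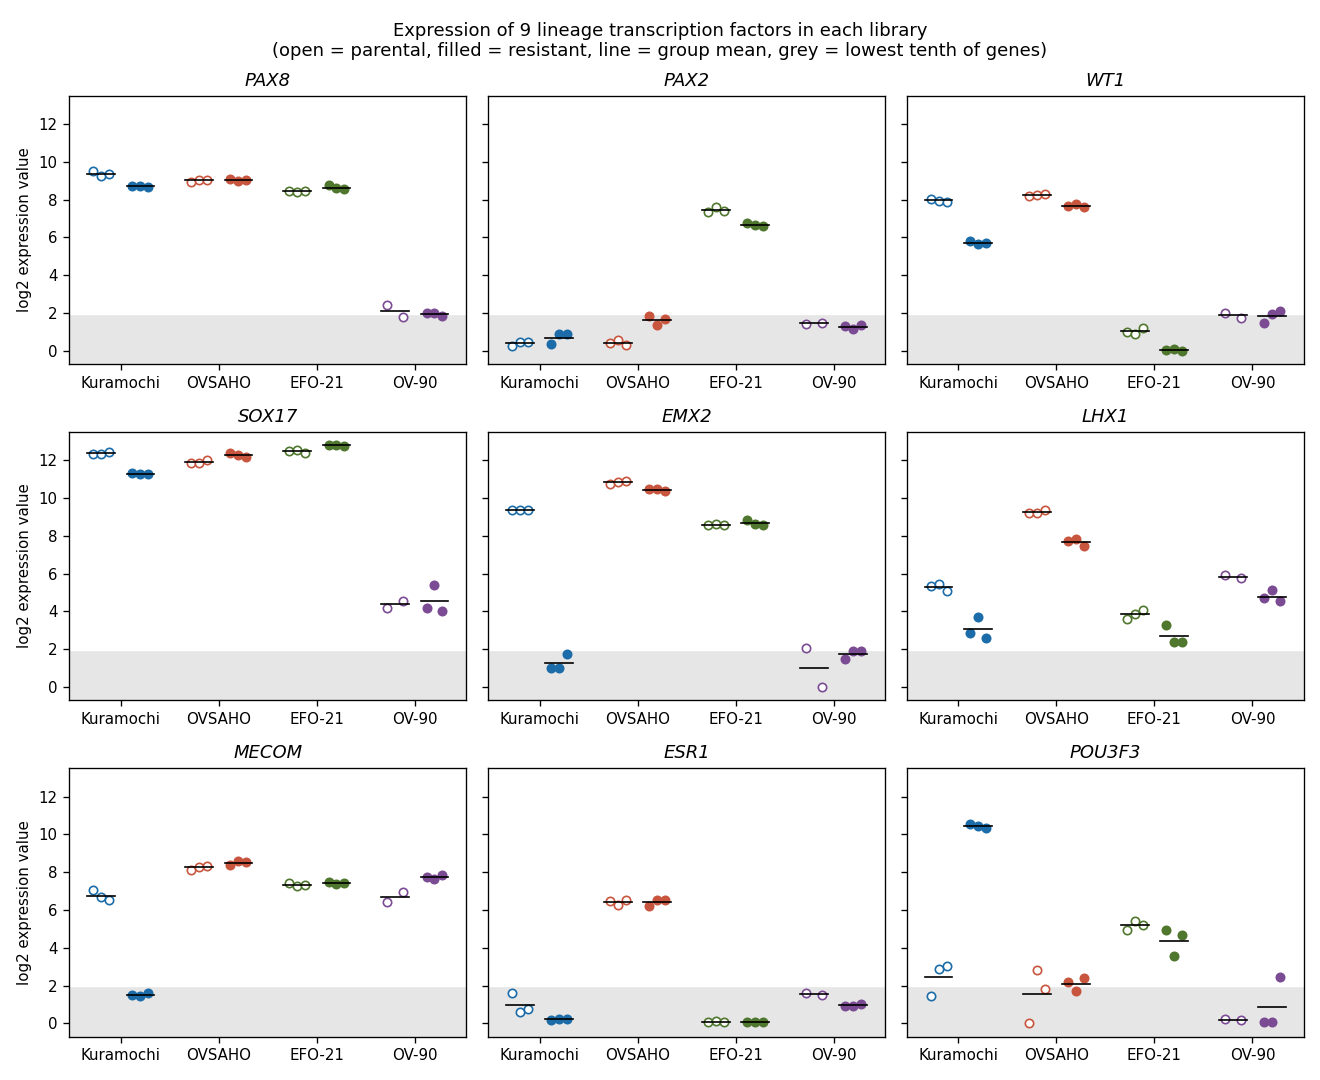
Each panel plots the log2 expression value (vertical axis) of 1 gene in every library of the 4 cell lines (horizontal axis), with open points for parental and filled points for resistant libraries, a line at the group mean and grey shading up to 1.87, the highest 10th percentile of a library. PAX8, WT1, SOX17 and EMX2 lay low in OV-90, and in Kuramochi EMX2 and MECOM dropped into the shading in the resistant libraries while POU3F3 rose to between 10.34 and 10.53.

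The parental lines differed in which of these factors they expressed. PAX8, SOX17 and EMX2 were high in Kuramochi, OVSAHO and EFO-21 and low in OV-90, and PAX2 and ESR1 were each above the bottom in 1 line only. These contrasts did not choose the genes and were tested with limma over all genes, but the parental libraries are also those against which LHX1, EMX2 and POU3F3 were picked. Of the 9 genes, 4 differed by at least 2-fold at an adjusted p under 0.05 between Kuramochi and OVSAHO (37.6% of all genes did), 4 between Kuramochi and EFO-21 (41.3%), 6 between Kuramochi and OV-90 (47%), 6 between OVSAHO and EFO-21 (44.2%), 8 between OVSAHO and OV-90 (48.1%) and 7 between EFO-21 and OV-90 (50.2%).

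PAX8, the paired-box factor of tubal secretory cells (chromosome 2 from 113973574 to 114036498 in GRCh37), was at 9.50, 9.27 and 9.35 in the parental Kuramochi libraries, 8.95, 9.04 and 9.06 in OVSAHO, 8.44, 8.42 and 8.46 in EFO-21 and 2.43 and 1.77 in OV-90. The OV-90 libraries lay far below all others, by 6.34 against EFO-21 (95% interval 5.98 to 6.70, adjusted p = 7.18e-10 from limma) and by 7.27 against Kuramochi (adjusted p = 3.12e-10). Among the other lines the order was Kuramochi, OVSAHO, EFO-21, and the step from Kuramochi to OVSAHO of 0.36 (interval 0.04 to 0.68) missed the threshold with an adjusted p of 0.0501. SOX17, an HMG-box factor that binds DNA together with PAX8 in ovarian carcinoma cells, followed the same division, with means of 12.47 in EFO-21, 12.36 in Kuramochi, 11.92 in OVSAHO and 4.38 in OV-90. EFO-21 and Kuramochi did not differ beyond their spread for SOX17 (difference 0.11 with EFO-21 higher, adjusted p = 0.36), and OV-90 was lower than OVSAHO by 7.54 (interval 7.29 to 7.79, adjusted p = 4.68e-11).

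EMX2, a homeobox factor needed for the urogenital tract (chromosome 10 from 119301956 to 119309057), was at 10.75, 10.85 and 10.89 in parental OVSAHO, 9.38, 9.38 and 9.35 in Kuramochi and 8.56, 8.65 and 8.56 in EFO-21. In parental OV-90 its libraries disagreed, at 2.06 and −0.01. OVSAHO was above Kuramochi by 1.46 (interval 0.59 to 2.33, adjusted p = 0.00773). Kuramochi was above EFO-21 by 0.78, under 2-fold and without overlap, with an adjusted p of 0.101 from limma. All parental lines share the same estimate of spread in this fit, and the disagreeing OV-90 libraries enter it. WT1, the zinc-finger factor of serous carcinoma, gonad and mesothelium (chromosome 11 from 32409321 to 32457110), split the lines differently. It was at 8.19, 8.27 and 8.30 in parental OVSAHO and 8.05, 7.95 and 7.89 in Kuramochi. OVSAHO was higher by 0.29 without overlap, under 2-fold and past no threshold in the shared fit (adjusted p = 0.0897). WT1 was at the bottom in EFO-21 (0.98, 0.90 and 1.21) and near it in OV-90 (1.99 and 1.76). EFO-21 therefore expressed PAX8, SOX17 and EMX2 with WT1 at the bottom, and the distance to OVSAHO was 7.22 (interval 6.92 to 7.53, adjusted p = 1.59e-10).

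PAX2, the paralog of PAX8 that acts in the duct and the kidney (chromosome 10 from 102495153 to 102589701), was above the bottom in EFO-21 alone among the parental lines, at 7.35, 7.61 and 7.39. In the other parental lines its libraries lay between 0.25 and 1.46. ESR1, which encodes oestrogen receptor alpha (chromosome 6 from 151977826 to 152450754), was above the bottom in OVSAHO alone, at 6.47, 6.26 and 6.53, with libraries of the other lines between 0.08 and 1.61. The 2 genes were thus high in different lines. EFO-21 exceeded OVSAHO for PAX2 by 7.01 (adjusted p = 1.74e-09 from limma), and OVSAHO exceeded EFO-21 for ESR1 by 6.33 (adjusted p = 2.78e-08). Exons with few reads in most libraries were left out before the values were made. A gene at or near the bottom elsewhere is therefore likely to have a value only through the line that expressed it. For PAX2 and ESR1 these p-values describe the distance and do not test whether a gene marks a line.

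LHX1, the LIM-homeobox factor without which the Müllerian duct does not form (chromosome 17 from 35294084 to 35301912), was expressed in every parental line. Its means were 9.25 in OVSAHO, 5.84 in OV-90, 5.29 in Kuramochi and 3.85 in EFO-21. The step from OVSAHO to OV-90 was 3.41 (interval 3.04 to 3.77, adjusted p = 3.94e-08), that from OV-90 to Kuramochi 0.55, under 2-fold (adjusted p = 0.0115), and that from Kuramochi to EFO-21 1.44 (adjusted p = 1.04e-05). MECOM, a zinc-finger regulator that includes the EVI1 protein and is often gained in ovarian carcinoma (chromosome 3 from 168801287 to 169381563), varied least between lines, with means of 8.25 in OVSAHO, 7.34 in EFO-21, 6.74 in Kuramochi and 6.68 in OV-90. Kuramochi and OV-90 did not differ beyond their spread for MECOM (0.06, interval −0.34 to 0.45, adjusted p = 0.782). OV-90, with PAX8, WT1 and EMX2 at or near the bottom, thus held LHX1 and MECOM well above the bottom.

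POU3F3, a POU-homeobox factor known from brain and kidney development (chromosome 2 from 105469745 to 105475032), was highest in parental EFO-21 at 4.95, 5.42 and 5.21. Its libraries spread widely in Kuramochi (1.42, 2.88 and 3.01) and OVSAHO (0.02, 2.82 and 1.79) and lay at the bottom in OV-90 (0.22 and 0.18). EFO-21 exceeded Kuramochi by 2.76 (interval 1.31 to 4.21, adjusted p = 0.0036) and OVSAHO by 3.65 (adjusted p = 0.000579), while Kuramochi and OVSAHO did not differ beyond the spread (adjusted p = 0.257). The value of this gene rests on 1 exon, and those of SOX17 and EMX2 on 3 and 6, beside 48 for PAX8 and 53 for MECOM. The Kuramochi excess over OV-90 (2.24, adjusted p = 0.0188) missed the threshold when parental library 2, 3, 5 or 6 was left out (adjusted p between 0.0542 and 0.0674).

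Markers of cell types are given beside these levels. Of the 17 measured markers of serous carcinoma and tubal epithelium, all were above the bottom in parental Kuramochi, OVSAHO and EFO-21, and 2 were at the bottom in OV-90, MUC16 and MSLN, the antigens CA125 and mesothelin. Their summed level was nevertheless close between lines, at 14.53 to 14.76 in the parental OV-90 libraries. It was 14.85 to 15.11 in Kuramochi, 15.14 to 15.19 in OVSAHO and 15.55 to 15.66 in EFO-21. The 6 markers of endoderm or liver were all above the bottom in OV-90, parental and resistant, with a summed level of 10.91 and 10.92 in the parental libraries, where ALB stood at 8.10. In the other parental lines 3 to 5 of these 6 were at the bottom, ALB among them, and the summed level lay between 5.17 and 9.02. The 4 stromal markers summed to between 12.39 and 13.25 in parental OV-90 and to at most 7.10 in the other parental lines. LUM, at a mean of 12.76, carried that sum, and PDGFRB stood at 2.25 in parental OV-90 beside 4.15 in Kuramochi and 5.64 in EFO-21. What part these differences have in the low PAX8, WT1 and EMX2 values of OV-90 was not tested. Profiles of libraries within a group correlated at 0.971 or above across genes, except the 2 of parental OV-90 (r = 0.952).

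The resistant libraries were then set against the parental ones within each line. Because this contrast was used when the genes were picked, the member values and calls below are a description and give no independent evidence of a change, and nothing is read from the shares of all genes printed beside their counts. At an adjusted p under 0.05 and at least 2-fold, the thresholds of a call throughout, 1 of the 9 genes was higher and 5 were lower in resistant Kuramochi (11.8% and 10.6% of all genes). In resistant OVSAHO it was 1 higher and 1 lower (3.93% and 3.83%), in EFO-21 0 higher and 1 lower (7.11% and 7.15%), and in OV-90 1 of each (9.5% and 6.56%). The median difference of the 9 genes was −1.07 in Kuramochi and 0.02, −0.03 and −0.04 in OVSAHO, EFO-21 and OV-90, beside −0.02, 0.00, 0.01 and −0.06 over all genes. Resistant and parental libraries did not overlap for 8 of the 9 in Kuramochi, 6 in OVSAHO, 7 in EFO-21 and 4 in OV-90, beside 59.2%, 48.4%, 59.7% and 69.1% of all genes.

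**Figure D2:**
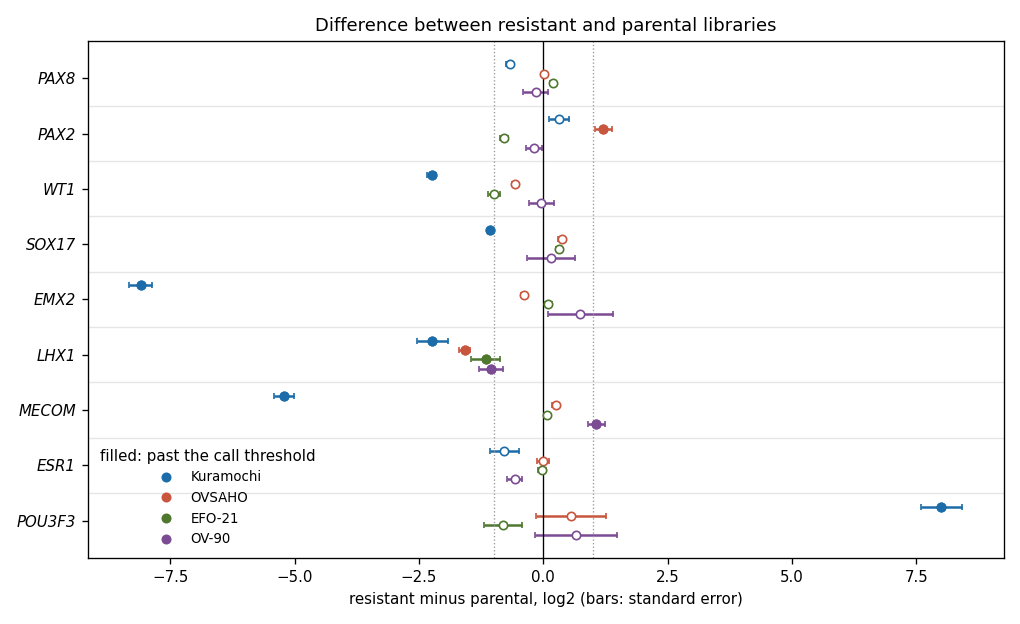
The horizontal axis is the resistant-minus-parental difference in log2 value for each of the 9 genes (rows) in the 4 lines (colours), with bars for the standard error, filled points past the call threshold and dotted lines at 2-fold. LHX1 lay left of 0 in all 4 lines (−2.23 to −1.05), and Kuramochi had the widest spread, from −8.10 for EMX2 to 8.01 for POU3F3.

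LHX1 was lower in each resistant line, which is how it was picked. In Kuramochi its libraries went from 5.37, 5.43 and 5.07 to 2.88, 3.69 and 2.61, a difference of −2.23 (standard error 0.31). In OVSAHO they went from 9.20, 9.20 and 9.34 to 7.72, 7.83 and 7.44 (−1.58, standard error 0.11). The OVSAHO difference was thus the most even between libraries, and resistant OVSAHO still stood above every parental library of the other lines. In EFO-21 the change was from 3.63, 3.86 and 4.07 to 3.27, 2.41 and 2.39 (−1.16, standard error 0.29), and in OV-90 from 5.92 and 5.76 to 4.69, 5.14 and 4.53 (−1.05, standard error 0.24). The groups did not overlap in any line. The last 2 calls were fragile, since LHX1 was past the threshold neither in EFO-21 without parental library 11 or 12 or resistant library 23 or 24, nor in OV-90 without parental library 2 or any 1 resistant library, with differences between −1.16 and −1.01 and between −1.23 and −0.93.

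In Kuramochi the homeobox factors EMX2 and POU3F3 moved in opposite directions. EMX2 went from between 9.35 and 9.38 in the parental libraries to 1.02, 1.02 and 1.76, the bottom of the resistant ones (−8.10, standard error 0.23). POU3F3 went from between 1.42 and 3.01 to 10.53, 10.46 and 10.34 (8.01, standard error 0.42). The resistant values were therefore near those of EMX2 in OV-90, and for POU3F3 above every other library of the series. EMX2 stayed near its parental level in the other lines that expressed it, at 10.46, 10.5 and 10.37 in resistant OVSAHO (−0.39, standard error 0.05) and 8.84, 8.64 and 8.57 in EFO-21 (0.09, standard error 0.07), where the groups overlapped. In OV-90 EMX2 was at 1.47, 1.92 and 1.93 in the resistant libraries (0.75, standard error 0.65), not past the threshold, and at 1.78 past it without parental library 2. POU3F3 was at 4.94, 3.54 and 4.65 in resistant EFO-21 (−0.82, standard error 0.38) and spread from 0.06 to 2.44 in resistant OV-90, neither past the threshold.

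MECOM and WT1 were also lower in resistant Kuramochi. The MECOM libraries went from 7.05, 6.67 and 6.50 to 1.49, 1.47 and 1.60, at the bottom (−5.22, standard error 0.20). In OV-90 MECOM was higher, from 6.44 and 6.93 to 7.75, 7.64 and 7.86 (1.07, standard error 0.18), a call lost without parental library 2 (0.82) or any 1 resistant library (1.01 to 1.12). The line with the MECOM drop was thus Kuramochi alone, since the values in OVSAHO (0.25, standard error 0.08) and EFO-21 (0.08, standard error 0.05) moved little. WT1 went from 8.05, 7.95 and 7.89 to 5.80, 5.65 and 5.71 in Kuramochi (−2.25, standard error 0.09). It went from 8.19, 8.27 and 8.30 to 7.66, 7.74 and 7.62 in OVSAHO (−0.58, standard error 0.05), with no overlap but under 2-fold. In EFO-21 and OV-90, where WT1 was at or near the bottom, its differences carry no measured fold.

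PAX8 and SOX17, both high in 3 of the lines, differed by little more than 2-fold at most. PAX8 was at 8.70, 8.72 and 8.67 in resistant Kuramochi (−0.67, standard error 0.07), 9.09, 9.0 and 9.02 in OVSAHO (0.02, standard error 0.04) and 8.78, 8.59 and 8.54 in EFO-21 (0.20, standard error 0.07), in no line past 2-fold. SOX17 was at 11.34, 11.28 and 11.26 in resistant Kuramochi, a difference of −1.07 (standard error 0.05), which was just past 2-fold. It was slightly higher in resistant OVSAHO (0.37, standard error 0.07) and EFO-21 (0.31, standard error 0.05), without overlap between the groups. In OV-90, where PAX8 and SOX17 were low, the resistant libraries overlapped the parental ones for both.

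PAX2 fell short of 2-fold in EFO-21, the line that expressed it, from between 7.35 and 7.61 to 6.75, 6.64 and 6.60 (−0.79, standard error 0.08). Its only call was in OVSAHO, from 0.43, 0.58 and 0.30 to 1.86, 1.39 and 1.68, at and around the bottom, and that call was lost when values below 1 were raised to 1 (0.64). ESR1 in OVSAHO was at 6.22, 6.53 and 6.50 in the resistant libraries, the same mean as in the parental ones (6.42). In the other lines ESR1 was at the bottom in both forms. Of the 9 genes, PAX8 and ESR1 had no call in any line.

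Transcripts on the opposite strand beside these genes were read at the same loci. Values were present for 3 of the 6 neighbours looked up, EMX2OS, WT1-AS and PAX8-AS1. In the GRCh37 annotation EMX2OS (chromosome 10 from 119232726 to 119304579) overlaps EMX2 by 2624 bases, WT1-AS (chromosome 11 from 32457064 to 32522178) overlaps WT1 by 47 bases, and PAX8-AS1 (chromosome 2 from 113968998 to 114034158) overlaps PAX8 by 60585 bases. The kit marked strand, but whether the counting used it is not given in the sources used here, so reads from overlapping parts cannot be assigned with certainty.

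EMX2OS and WT1-AS followed their partners. As neighbours of genes picked with the resistant-against-parental contrast known, both are described for it without a test and give no independent evidence. EMX2OS went from 9.13, 8.72 and 8.76 in parental Kuramochi to 1.96, 0.98 and 1.57 in the resistant libraries (−7.37, standard error 0.28). WT1-AS went from 7.66, 7.56 and 7.60 to 5.90, 5.45 and 5.56 (−1.97, standard error 0.14). Neither was past the threshold in another line. At baseline EMX2OS was highest in OVSAHO (11.27) and lowest in OV-90 (1.83), as EMX2 was, and WT1-AS was at 7.61 in Kuramochi and 7.48 in OVSAHO against 0.36 in EFO-21 and 1.65 in OV-90.

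PAX8-AS1 went the other way from PAX8 between OV-90 and the other lines, and that contrast rests on OV-90 alone. It was at 7.78 and 8.17 in parental OV-90, where PAX8 was at 2.43 and 1.77, and its means were 3.44, 3.09 and 3.16 in Kuramochi, OVSAHO and EFO-21, where PAX8 stood above 8. OV-90 exceeded Kuramochi by 4.54 for PAX8-AS1 (interval 3.95 to 5.12, adjusted p = 1.69e-07) and OVSAHO by 4.88 (adjusted p = 9.09e-08), and the other 3 lines did not differ among themselves beyond the spread (adjusted p between 0.222 and 0.822). The resistant OV-90 libraries kept this pattern, at 8.52, 8.46 and 8.39.

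**Figure D3:**
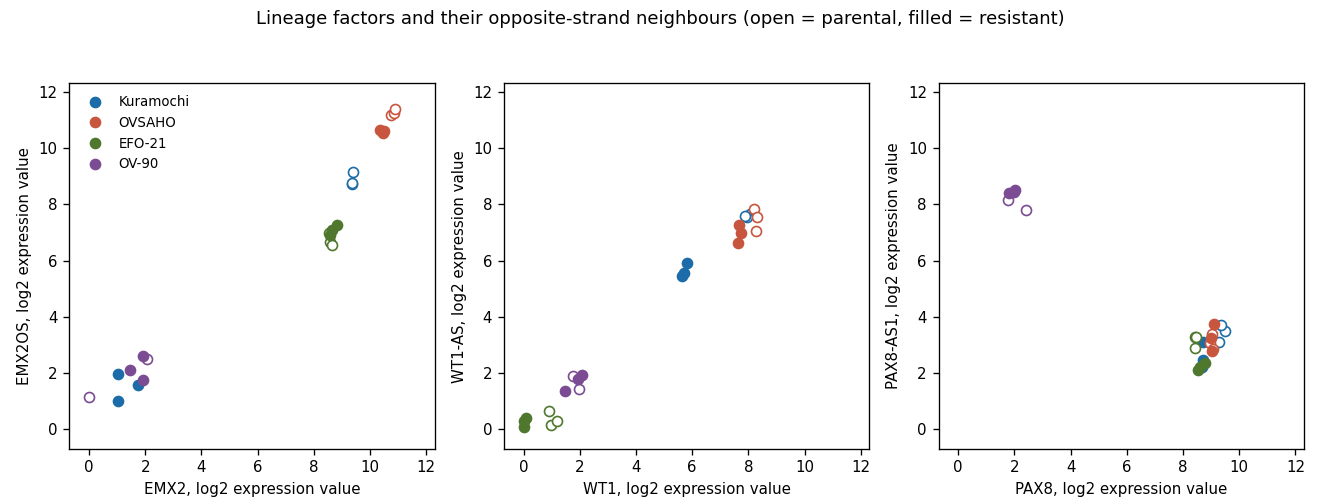
Each panel plots the log2 value of a neighbouring opposite-strand transcript (vertical axis) against that of its lineage factor (horizontal axis) in the 23 libraries, open for parental and filled for resistant. EMX2OS and WT1-AS lie along a rising line with their partners, and PAX8-AS1 is high (7.78 to 8.52) only in the OV-90 libraries, where PAX8 is at 2.43 or below.

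The other genes of the lineage were followed in lists that leave the 10 factors out, with limma calls over all genes. Beside each list below stand the shares of all genes, 11.8% higher and 10.6% lower in Kuramochi and 3.93% and 3.83% in OVSAHO. In EFO-21 they were 7.11% and 7.15%, and in OV-90 9.5% and 6.56%. Medians over all genes were −0.02, 0.00, 0.01 and −0.06 in that order of lines. No list was tested as a set, and several counts lie near these shares. Of 30 measured genes of Müllerian duct and tract development, 7 were higher and 7 lower in resistant Kuramochi, 10 and 3 in OVSAHO, 3 and 2 in EFO-21 and 4 and 1 in OV-90, with medians of −0.03, 0.33, 0.04 and −0.02. DACH1, a cofactor in the eye and limb network, went from 8.57 to 1.33 in Kuramochi (adjusted p = 1.9e-05), to the bottom, and FOXF2, a forkhead factor of mesenchyme, rose from 3.32 to 7.60 (adjusted p = 0.00038). In OVSAHO EMX1, the paralog of EMX2, rose by 1.68 (adjusted p = 0.000246) and the growth factor receptor gene FGFR2 fell by 1.31 (adjusted p = 0.000135). WNT5A, a duct signal, fell by 4.98 in EFO-21 (adjusted p = 0.000133). In OV-90 FRAS1, a basement membrane gene, rose by 1.56 (adjusted p = 0.0174) and AMHR2, the receptor for anti-Müllerian hormone, by 1.05 (adjusted p = 0.0315). The OV-90 calls in these lists rest on few libraries. Over all lists 15 genes were higher and 8 lower there, and with any 1 resistant library left out between 1 and 3 were higher and 2 or 3 lower.

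Of 26 measured partners and paralogs, 4 were higher and 3 lower in Kuramochi, 3 and 2 in OVSAHO, 5 and 2 in EFO-21 and 3 and 0 in OV-90, with medians of 0.13, 0.22, 0.19 and 0.13. In Kuramochi PAX5 (0.02 to 4.19, adjusted p = 0.000236) and PAX6 (1.20 to 4.43, adjusted p = 0.000108), both relatives of PAX8, rose from the bottom, genes named after their values were seen. SOX2, a relative of SOX17, fell by 1.81 in Kuramochi, with an adjusted p of 0.000103, and in OVSAHO it fell by 1.22 (adjusted p = 0.00308). The LIM-homeobox gene LMX1B fell by 2.05 in Kuramochi (adjusted p = 0.000348). LHX2, a relative of LHX1, rose by 1.46 in OVSAHO, with an adjusted p of 0.00175, and by 1.80 in EFO-21 (adjusted p = 0.000536), and PAX9 by 1.77 in EFO-21 (adjusted p = 0.00122). In OV-90 SOX9 rose by 1.72 (adjusted p = 0.028) and the glucocorticoid receptor gene NR3C1 by 1.57 (adjusted p = 0.0192).

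Targets of the receptors and of WT1 were counted in the same way. Of 22 oestrogen receptor targets, 4 were higher and 3 lower in Kuramochi, 0 and 4 in OVSAHO, 2 and 4 in EFO-21 and 4 of each in OV-90, with medians of −0.17, 0.05, 0.14 and 0.06. In Kuramochi NRIP1, a receptor co-repressor, fell by 2.93 (adjusted p = 0.00279) and GREB1, a receptor cofactor, fell by 2.08 (adjusted p = 0.000258), in a line where ESR1 was at the bottom before and after. In OVSAHO, which expressed ESR1, the 4 lower genes were AREG (2.72 to 1.54), CXCL12 (3.92 to 1.71), PDZK1 (4.74 to 3.31) and PRLR (4.89 to 2.58), named after their values were seen. All 4 lay below 5.81, the median of all gene means, in both forms, and the other 18 targets were not called there. In EFO-21 the ligand gene AREG fell by 5.81 (adjusted p = 4.46e-05) and CXCL12, a chemokine gene, rose by 3.90 (adjusted p = 7.31e-05), while in OV-90 IGFBP4 fell by 2.74 (adjusted p = 0.00359) and TFF1 fell by 1.59 (adjusted p = 0.00671). Of 9 measured WT1 targets, 2 were higher and 4 lower in Kuramochi, 2 and 2 in OVSAHO, 2 and 2 in EFO-21 and 2 and 0 in OV-90, with medians of −0.58, 0.08, 0.09 and 0.65. The Kuramochi and OVSAHO medians are the values of AMHR2, at the bottom in both forms of these lines, and so give no measured change. The list does not separate genes that WT1 raises from genes it lowers, so its counts have no expected direction. IGF2, a fetal growth factor gene, fell from 10.56 to 3.42 in Kuramochi (adjusted p = 1.18e-05) and rose from 8.17 to 11.34 in OV-90 (adjusted p = 0.00969). SPRY1, an inhibitor of growth factor signalling, fell by 2.38 in Kuramochi, with an adjusted p of 4.65e-05, and fell by 1.64 in EFO-21 (adjusted p = 3.05e-05), and CDH1, E-cadherin, fell by 1.67 in OVSAHO (adjusted p = 8.97e-05).

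Of the 17 measured markers of serous carcinoma and tubal epithelium, 0 were higher and 10 lower in Kuramochi, 0 and 9 in OVSAHO, 1 and 1 in EFO-21 and 1 and 2 in OV-90, with medians of −1.67, −1.01, −0.41 and −0.41. With each library left out in turn the lower counts were 9 to 12 in Kuramochi and 8 to 9 in OVSAHO. CLDN4, a tight-junction claudin, fell by 4.61 (adjusted p = 4.78e-06) and KRT19, a simple-epithelial keratin, fell by 3.96 (adjusted p = 1.64e-05) in Kuramochi. In OVSAHO MUC16 fell by 4.59 (adjusted p = 3.39e-05) and the adhesion gene EPCAM fell by 3.01 (adjusted p = 1.23e-05). MSLN rose by 2.10 (adjusted p = 1.79e-05) and LCN2, a secreted lipocalin, fell by 3.97 (adjusted p = 3.11e-05) in EFO-21, and the protease inhibitor gene SLPI fell by 1.22 in OV-90 (adjusted p = 0.0174).

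**Figure D4:**
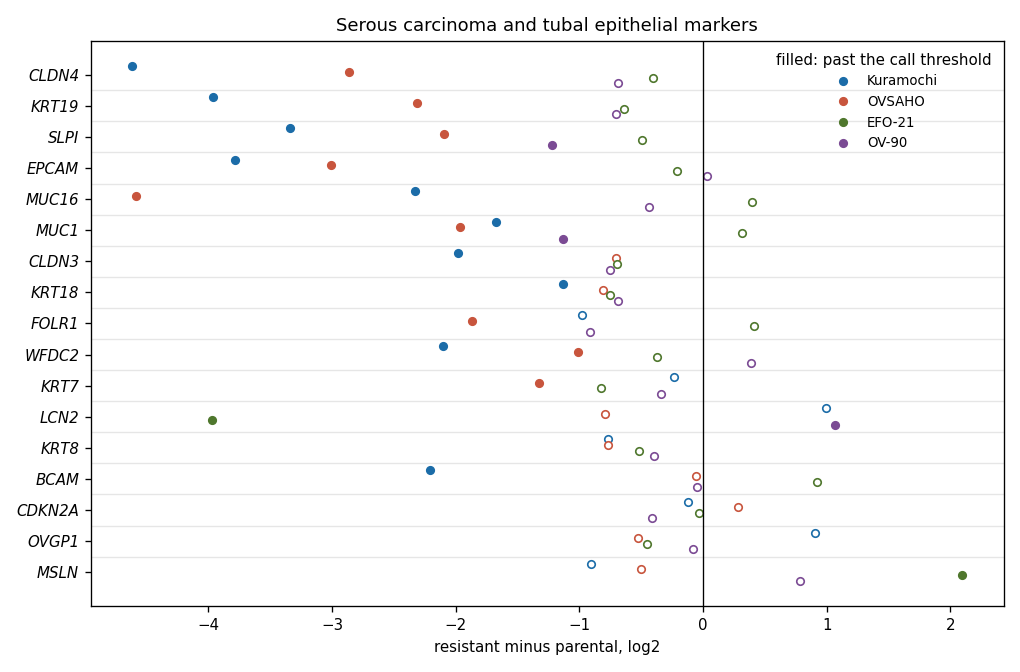
The horizontal axis is the resistant-minus-parental difference in log2 value of the 17 measured markers (rows) in the 4 lines (colours), filled where past the call threshold. Filled points of Kuramochi (10) and OVSAHO (9) all lie left of 0, and those of EFO-21 and OV-90 are few and lie on either side.

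Ciliated-cell markers and those of other cell types were read beside these. Of 8 measured ciliated markers, 0 were higher and 4 lower in Kuramochi, 1 and 1 in OVSAHO, 2 and 1 in EFO-21 and 1 and 0 in OV-90, with medians of −1.10, −0.15, 0.40 and −0.26. TPPP3 fell by 3.76 (adjusted p = 0.000232) and CAPS fell by 2.64 (adjusted p = 9.24e-05) in Kuramochi, CAPS fell by 2.43 in OVSAHO (adjusted p = 3.4e-05), CCDC78 rose by 1.57 in EFO-21 (adjusted p = 0.00014), and FOXJ1, the factor of ciliated cells, rose by 1.93 in OV-90 (adjusted p = 0.0192). Of 19 measured markers of other cell types, 4 were higher and 8 lower in Kuramochi, 3 and 5 in OVSAHO, 2 and 2 in EFO-21 and 1 of each in OV-90, with medians of −1.04, 0.18, 0.13 and −0.32. The stromal proteoglycan genes LUM (2.03 to 6.76, adjusted p = 0.000954) and DCN (2.05 to 6.27, adjusted p = 6.17e-05) rose in OVSAHO, while the collagen gene COL1A1 fell by 1.54 (adjusted p = 0.00103) and PDGFRB differed by -0.13, not past the threshold, both named after their values were seen. In Kuramochi the mesothelial marker LRRN4 fell by 4.46 (adjusted p = 9.28e-05) and APOA1 fell by 3.46 (adjusted p = 5.4e-05). LRRN4 also fell in EFO-21 by 1.63 (adjusted p = 0.000582), where INHA rose by 2.11 (adjusted p = 0.00348), and in OV-90 PECAM1 fell by 2.89 (adjusted p = 0.00456) and ALB rose from 8.10 to 9.11 (adjusted p = 0.00439). Their part in the values of the lineage factors was not tested.

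The genes whose 8 group means most resembled each factor were found by Pearson correlation among 12652 genes spanning at least 2, a description over 8 means that share libraries. For WT1 the nearest were WT1-AS (r = 0.996) and WDR17 (r = 0.991), and for EMX2 they were BMP7 (r = 0.989), a signalling gene of the developing tract, and GLDCP1 (r = 0.988). PAX8 was closest to IGHV3OR16-7 (r = 0.999) and THEM6 (r = 0.996), and SOX17 to IGHV3OR16-6 (r = 0.996) and SLC26A2 (r = 0.995). Both factors were low in OV-90 alone, so another gene low only there also gives a high r. The same limit holds for PAX2, high in EFO-21 alone, and ESR1, above the bottom in 1 line. It also holds for WT1, EMX2 and MECOM, each at or near the bottom in some groups and well above it in the others. For LHX1, EMX2 and POU3F3 the group means include the changes known when these genes were picked. PAX2 was closest to ARHGAP40 (r = 0.996) and TUNAR (r = 0.993), and ESR1 to GRIA2 and GGT6 (r = 0.9996 and 0.9994). LHX1 was closest to FXYD7 (r = 0.980) and AANAT (r = 0.976), MECOM to CCDC152 (r = 0.973) and PLCG1-AS1 (r = 0.966), and POU3F3 to TENM2 (r = 0.972) and EPN2 (r = 0.967).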

How the data were processed

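RNA from parental and prexasertib-resistant Kuramochi, OVSAHO, EFO-21 and OV-90 cells was sequenced as stranded mRNA libraries, 3 per group and 2 for parental OV-90, which the labels call biological replicates. P-values measure only the spread between these libraries. The authors aligned reads to GRCh37/hg19, left out exons that had fewer than 10 reads in over 80% of the samples, derived 1 value per gene by a robust linear model (or a mean of log2 exon values) and deposited quantile normalized log2 values. The deposited table also gives the number of exons behind each value, read here for the members only. A gene read in only 3 libraries (13% of all) could be lost to the exon filter. The values are not counts, so depth is unknown and no counting error could be given. Columns of other samples numbered 0. Library numbers name columns and pair nothing.

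Each line was fitted with limma (version 3.58.1, R 4.3.3, lmFit and eBayes with trend) on the whole table, and the 11 parental libraries in a fit of their own for 6 contrasts between lines. P-values are two-sided and adjusted by Benjamini-Hochberg over 21658 genes. An exact permutation test of single genes cannot go below 0.1 at 3 against 3 or 2 against 3 libraries and was not used. Code was tested on simulated data. Symbols came from RefSeq for 95.8% of genes, positions from GENCODE annotation lifted to GRCh37. The members and lists were chosen with earlier results of these data known. Named genes are the members, their measured neighbours, from each list and line the 2 called genes with the largest difference whose higher mean exceeded 5.81 (the median of all gene means), and the 2 genes most like each member. A few genes outside this rule are named, and the text says so where they appear. A gene that this rule names is not reported here. Alternatives were 1 fit of the 23 libraries, no trend, leaving out low genes, recentring, values below 1 raised to 1, other thresholds, and leaving out each library.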

Additional observations from a re-analysis of the deposited data

Results flagged for a closer look

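Among the lineage factors and the listed genes, 13 given here were called in opposite directions in different lines, and the differences between lines were not tested. MECOM differed by 1.07 in OV-90 and -5.22 in Kuramochi. Of the genes of duct and tract development, EMX1 differed by 1.68 in OVSAHO and -3.73 in Kuramochi, and FRAS1 by 1.83 in OVSAHO, 1.56 in OV-90 and -2.30 in Kuramochi. Of the partners and paralogs, LHX2 differed by 1.46 in OVSAHO, 1.80 in EFO-21 and -1.49 in Kuramochi, LMX1B by 1.21 in EFO-21 and -2.05 in Kuramochi, and SOX9 by 1.72 in OV-90 and -1.17 in EFO-21. Of the oestrogen receptor and WT1 targets, IGFBP4 differed by 1.14 in Kuramochi and -2.74 in OV-90, CXCL12 by 3.90 in EFO-21 and -2.21 in OVSAHO, IGF2 by 1.28 in OVSAHO, 3.17 in OV-90 and -7.13 in Kuramochi, and CDH1 by 1.39 in EFO-21, -3.00 in Kuramochi and -1.67 in OVSAHO. Of the markers, LCN2 differed by 1.07 in OV-90 and -3.97 in EFO-21, FOXJ1 by 1.23 in EFO-21, 1.93 in OV-90 and -3.73 in Kuramochi, and DCN by 4.22 in OVSAHO and -2.52 in Kuramochi. MECOM, EMX1, CDH1, FOXJ1 and DCN were at the bottom in resistant Kuramochi. The OV-90 calls are fragile. That of MECOM was lost without parental library 2 or with any resistant library left out, and far fewer list genes were called there without a resistant library. In 8 of these 13 genes the line with the fall was Kuramochi alone. Of all genes 10.6% were lower in Kuramochi, 3.83% in OVSAHO, 7.15% in EFO-21 and 6.56% in OV-90. The genes are listed for their opposite calls, so nothing is read from the count.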

How the results depend on the processing

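No paired analysis was possible because the columns carry library numbers and no replicate numbers. No called difference of a lineage factor, between forms or between parental lines, reversed under the alternatives that gave differences, and directions of single list genes were not followed. A single fit of the 23 libraries, no mean-variance trend and recentring moved no count of lineage factors by over 1.5 times. Leaving out low genes gave 0 factors higher in OVSAHO and 0 lower in EFO-21, 6 higher list genes in OVSAHO, and 2, 3 and 4 factors called for Kuramochi, OVSAHO and OV-90 against EFO-21 at baseline, since PAX2 in OVSAHO, LHX1 in EFO-21 and, at baseline, PAX2, ESR1 and POU3F3 lay under the 25th percentile and dropped out of that test. Raising values below 1 to 1 gave 0 factors higher in OVSAHO. With adjusted p alone, OVSAHO had 2 higher and 3 lower factors, EFO-21 had 1 and 3, and OV-90 had 2 lower ones, and at 1.5-fold 3 were lower in EFO-21. With each library left out in turn, the factors lower in EFO-21 numbered between 0 (without library 12 or 24) and 2 (without library 10). In OV-90 they numbered between 0 and 1 in each direction, with 0 higher without library 13, 14 or 15 and 0 lower also without library 2. The list genes in OV-90 numbered between 1 and 24 higher and between 2 and 16 lower, with the highest counts without library 3 and the lowest without a resistant library. For these changes the cause was not tested beyond the fewer samples or genes in the fit. Depth is unknown and values near the bottom cannot be told from no expression.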
